A study of Mus musculus with 8 samples.

Results

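The genes described here encode the enzymes and regulators of fatty acid synthesis in liver. There were 10 of them, given as a list by pathway membership: Srebf1, Mlxipl, Fasn, Scd1, Acaca, Acacb, Acly, Elovl6, Me1 and Thrsp. Chromatin accessibility had been measured by ATAC-seq, in which the Tn5 transposase cuts and tags open DNA, and the deposited data are peaks, stretches where tags pile up above the local background. A consensus region was assigned to a gene on the list when that gene was the nearest protein-coding gene on mm10, at most 100 kb away. This gave 81 of the 49587 consensus regions, and each of the 10 genes had at least 3.

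The livers came from male C57BL/6 mice aged 9 weeks that had been fasted for 24 h, and each genotype was represented by 2 libraries. The genotypes were wild type (WT), loss of Cpt2 in liver (Cpt2 L-/-), loss of Ppara (Ppara -/-), and loss of both (Cpt2 L-/- ; Ppara -/-), where the labels call the Ppara loss whole-body. All 8 libraries are from fasted animals, so no fed liver serves as a reference. The Cre line that deletes Cpt2, and whether the wild type mice were littermates with floxed alleles, are not given in the sources used here. The labels do not say whether the 2 libraries of a genotype came from separate animals. Wild type and Cpt2 knockout are called Ppara-intact below, and Ppara knockout and double knockout Ppara-null.

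In lipogenesis, ATP citrate lyase (Acly) makes cytosolic acetyl-CoA from citrate, and acetyl-CoA carboxylase 1 (Acaca) turns it into malonyl-CoA for fatty acid synthase (Fasn). Malic enzyme (Me1) supplies NADPH, Elovl6 lengthens the palmitate that Fasn makes, and Scd1 introduces a double bond. Srebf1 encodes SREBP-1, a factor induced by insulin, and Mlxipl encodes ChREBP, a factor that responds to sugar, and both activate these enzyme genes after feeding. Thrsp (Spot 14) follows the same signals, and Acacb makes malonyl-CoA at mitochondria, where it blocks the uptake of fatty acids for oxidation. Cpt2 is needed for that oxidation, and Ppara is the nuclear receptor that turns on oxidation genes in fasting.

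The regions at gene starts carry much of what follows, so the promoter bases of 6 starts are shown first. They were chosen to set the outer Mlxipl start, called in all 8 libraries, beside the internal Mlxipl start, called in none of the Ppara-null ones, together with the starts of Fasn, Acly, Me1 and Thrsp, called in 6, 8, 5 and 7 libraries. Each line gives the 250 bases before an annotated start, 5′ to 3′ on the gene's strand, from RefSeq on GRCm38.p6, the assembly of mm10. Capitals mark matches to a searched motif.
Mlxipl outer start (chr5:135089640-135089889, plus strand): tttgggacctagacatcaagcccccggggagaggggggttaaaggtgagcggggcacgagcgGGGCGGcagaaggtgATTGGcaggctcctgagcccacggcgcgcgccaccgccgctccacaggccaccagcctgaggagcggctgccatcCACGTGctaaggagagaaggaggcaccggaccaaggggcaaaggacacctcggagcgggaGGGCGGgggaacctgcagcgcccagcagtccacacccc
Mlxipl internal start (chr5:135106641-135106890, plus strand): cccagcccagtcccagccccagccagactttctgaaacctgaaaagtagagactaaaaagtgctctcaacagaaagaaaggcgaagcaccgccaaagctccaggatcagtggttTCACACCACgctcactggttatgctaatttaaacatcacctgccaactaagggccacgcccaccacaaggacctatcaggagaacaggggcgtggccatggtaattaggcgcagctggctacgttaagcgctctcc
Fasn (chr11:120824548-120824797, minus strand): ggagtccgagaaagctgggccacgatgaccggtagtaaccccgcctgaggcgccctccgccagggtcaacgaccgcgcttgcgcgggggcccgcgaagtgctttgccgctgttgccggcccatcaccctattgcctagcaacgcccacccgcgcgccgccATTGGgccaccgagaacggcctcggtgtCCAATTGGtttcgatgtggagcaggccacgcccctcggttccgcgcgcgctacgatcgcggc
Acly (chr11:100528001-100528250, minus strand): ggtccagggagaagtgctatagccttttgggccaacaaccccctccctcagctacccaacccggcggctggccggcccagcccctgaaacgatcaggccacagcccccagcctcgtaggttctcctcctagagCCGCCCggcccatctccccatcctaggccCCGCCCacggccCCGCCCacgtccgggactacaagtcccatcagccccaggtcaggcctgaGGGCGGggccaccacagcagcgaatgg
Me1 (chr9:86695915-86696164, minus strand): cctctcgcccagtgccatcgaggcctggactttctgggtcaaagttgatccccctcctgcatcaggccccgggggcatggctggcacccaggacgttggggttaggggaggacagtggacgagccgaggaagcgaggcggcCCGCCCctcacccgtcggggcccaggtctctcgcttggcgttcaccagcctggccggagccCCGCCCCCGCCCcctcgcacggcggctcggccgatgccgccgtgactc
Thrsp (chr7:97417551-97417800, minus strand): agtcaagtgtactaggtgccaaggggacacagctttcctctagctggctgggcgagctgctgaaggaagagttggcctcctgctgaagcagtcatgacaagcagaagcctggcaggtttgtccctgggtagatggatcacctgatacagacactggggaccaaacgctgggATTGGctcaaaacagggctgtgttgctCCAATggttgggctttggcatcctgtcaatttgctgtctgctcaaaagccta

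The motifs were searched on both strands in the windows of 300 bases from 250 before to 50 after each start, of which 13 belonged to 9 of the genes. Scd1 had no window, and those of Acaca, Acacb and a second Me1 start (86687277) were called in 0 libraries. These 13 windows are thus not the 13 start regions described below. The CCAAT box (CCAAT), bound by NF-Y, was present in 8 of the 13 windows, against 37.4% of all 32851 windows. The 8 include the uncalled Acacb and Me1 windows. Fasn held 3 of these boxes, at -90, -62 and -59 bases from its start, the last a pair that overlap on opposite strands, and Thrsp held one at -79 and one at -52. The GC box (GGGCGG), bound by Sp1, was in 5 of the 13, against 35.7%, with 4 copies each at Acly and at the Me1 start. The E-box (CACGTG), a site type of ChREBP and USF, was found in 1 of the 13, at the outer Mlxipl start, against 7.15%. The sterol response element (TCACNCCAC) was also found in 1, at the internal Mlxipl start, against 1.24%. The half-site AGGTCA repeated with 1 base between copies, as PPARs bind it, or with 4, as LXR binds it, was in none of the 13 windows, against 0.0396% and 0.0152% of all. These are matches of letters in a short window and not measured binding.

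Accessibility at these genes was called far less often in the Ppara-null livers. Of the 81 regions, wild type libraries called 48 and 63, Cpt2 knockout 69 and 58, Ppara knockout 25 and 21, and double knockout 29 and 19. The lowest Ppara-intact library thus lies well above the highest Ppara-null one. As shares, Ppara-intact libraries called 73.5% ± 11.0 (SD, n = 4) and Ppara-null libraries 29.0% ± 5.47 (SD, n = 4) of the regions, a difference of -44.4 percentage points. The same shares over all consensus regions were 69.4% ± 8.84 and 38.9% ± 4.27 (SD, n = 4 each), a difference of -30.6 points, so much of the gap is one that all regions show. No test was made on these shares, because the genes were listed with earlier results of these data known. Peak lists also differed in length, with 28733 to 39296 peaks where Ppara was present and 18132 to 22715 where it was lost.

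**Figure D1:**
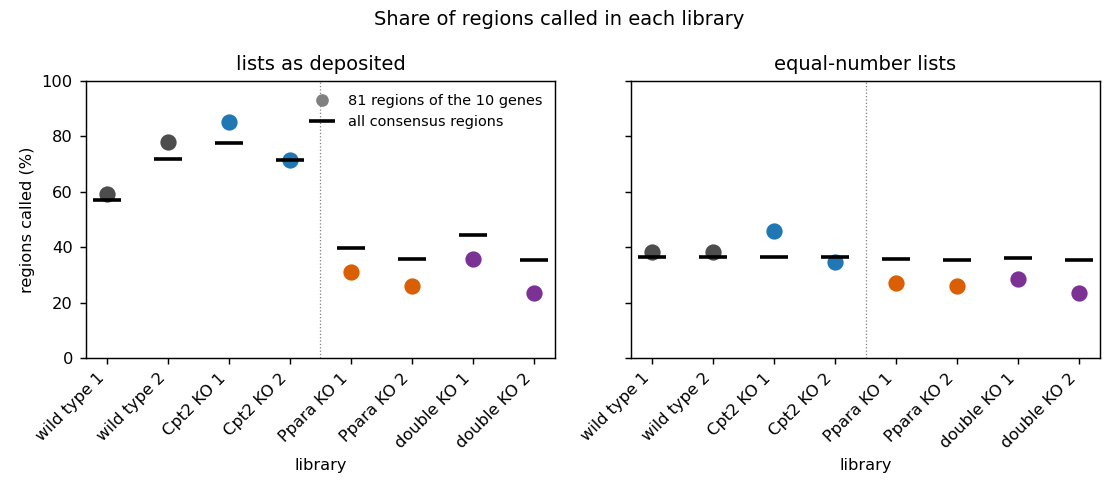
Share of regions called in each library (y axis, percent; x axis, library), for the 81 regions of the listed genes (points, coloured by genotype) and for all consensus regions (black dashes), with lists as deposited (left) and equal-number lists of 18132 peaks each (right). In both panels the points of the 4 Ppara-null libraries lie below the dash of their own library. In the right panel the point of Cpt2 knockout 2 does so too, at 34.6% against 36.4%.

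The label of liver was checked at marker genes. All 8 hepatocyte markers, Alb and Hnf4a among them, had regions, 77 in all, called at 57.1% to 70.1% per library with Ppara and 46.8% to 53.2% without it. All 6 endothelial markers had regions, 39 in all, called at 30.8% to 71.8% per library with Ppara and 10.3% to 15.4% without it. Of the 10 regions of Pecam1, 3 to 7 were called with Ppara and 0 without it, and of the 16 of Stab2, 5 to 12 and 3 to 5. No Ppara-null library called 30 of the 39 endothelial regions (76.9%), against 42.3% of all regions. Stellate markers (4 of 5 genes) had 11 regions called at 45.5% and 9.09%, cholangiocyte markers (2 of 4) 11 at 70.5% and 4.55%, and adipocyte markers (4 of 4) 9 at 55.6% and 11.1%. Macrophage markers (3 of 6) had 4 regions called at 25.0% and 6.25%, and lymphocyte markers (1 of 4) had 1. Adgre1, Marco, Vsig4, Krt19 and Krt7 had no region. In lists of equal number, described next, hepatocyte markers were called at 38.6% with Ppara and 47.1% without it, endothelial markers at 9.62% and 11.5%, and cholangiocyte markers at 13.6% and 2.27%. Stellate markers were called at 0% and 9.09%, and adipocyte markers at 13.9% and 11.1%. Of the 4 macrophage regions 0 were called in any library, and the 1 lymphocyte region was called in 3 of 4 libraries with Ppara and 2 of 4 without it. In whole tissue, fewer cells of a type and less open chromatin per cell cannot be told apart, and the part of these markers in the results was not tested. Peak names carry a number, 441, 443, 446 or 4717 where Ppara was present and 6831 to 6834 where it was lost, and what it marks is not given in the sources used here. It moves with Ppara status, and so does the median fold of a list, 6.56 to 7.46 with Ppara and 5.65 to 6.08 without it, so these cannot be told apart.

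Because a longer list calls more regions everywhere, the shares were also taken from equal-number lists, the 18132 strongest peaks of each library by -log10 p. There the wild type libraries called 31 and 31 of the 81 regions, Cpt2 knockout 37 and 28, Ppara knockout 22 and 21, and double knockout 23 and 19. The shares of Ppara-intact libraries, 34.6% to 45.7%, and of Ppara-null libraries, 23.5% to 28.4%, did not overlap. Over all regions they did not overlap either, at 36.3% to 36.4% and 35.3% to 36.0%. The difference was -13.0 points for the 81 regions, while over all regions it was -0.686. Elovl6 holds 21 of the 81 regions, and without them the difference in equal-number lists was -15.8 points. By gene the difference was uneven, from -2.27 points at Acaca and -4.17 at Acly to -39.3 at Scd1 and -45.0 at Acacb. Regions of one gene share a locus and are not independent of each other, and the equal-number share is again given without a test.

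The regulators come first. At Srebf1 the 4 Ppara-intact libraries called 5 or 6 of 6 regions and the Ppara-null libraries 1, 1, 2 and 0. At Mlxipl the Ppara-intact libraries called 5 to 7 of 7 regions and the Ppara-null ones 2 to 4. In equal-number lists the mean shares with and without Ppara were 25.0% and 12.5% at Srebf1 and 60.7% and 39.3% at Mlxipl, so the larger difference was at Srebf1 as deposited and at Mlxipl in equal-number lists, and it was not tested. Among enzymes, Acly and Acaca had the highest mean shares without Ppara, with 3 or 4 of 6 Acly regions and 4 to 8 of 11 Acaca regions called per library. Me1 and Elovl6 had the lowest, with 1 or 2 of 11 and 2 to 4 of 21, where all consensus regions had a mean share of 38.9%. Both genes were also low with Ppara in equal-number lists, at 11.4% against 6.82% without it for Me1 and 19.0% against 14.3% for Elovl6, so their differences of -43.2 and -52.4 points became -4.55 and -4.76. Acacb was called at every one of its 5 regions in all 4 Ppara-intact libraries, and at 2, 0, 4 and 3 regions in Ppara knockout 1 and 2 and double knockout 1 and 2. In equal-number lists, ranges of Ppara-intact and Ppara-null libraries did not overlap for Scd1, with 4 to 6 of 7 regions against 1 to 3, and met or overlapped for each of the other 9 genes. Acacb had a larger difference of mean shares, -45.0 points against -39.3 at Scd1, and its ranges met at 60.0%. The share of all genes whose ranges did not overlap is not given here, and the Scd1 result was not tested.

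**Figure D2:**
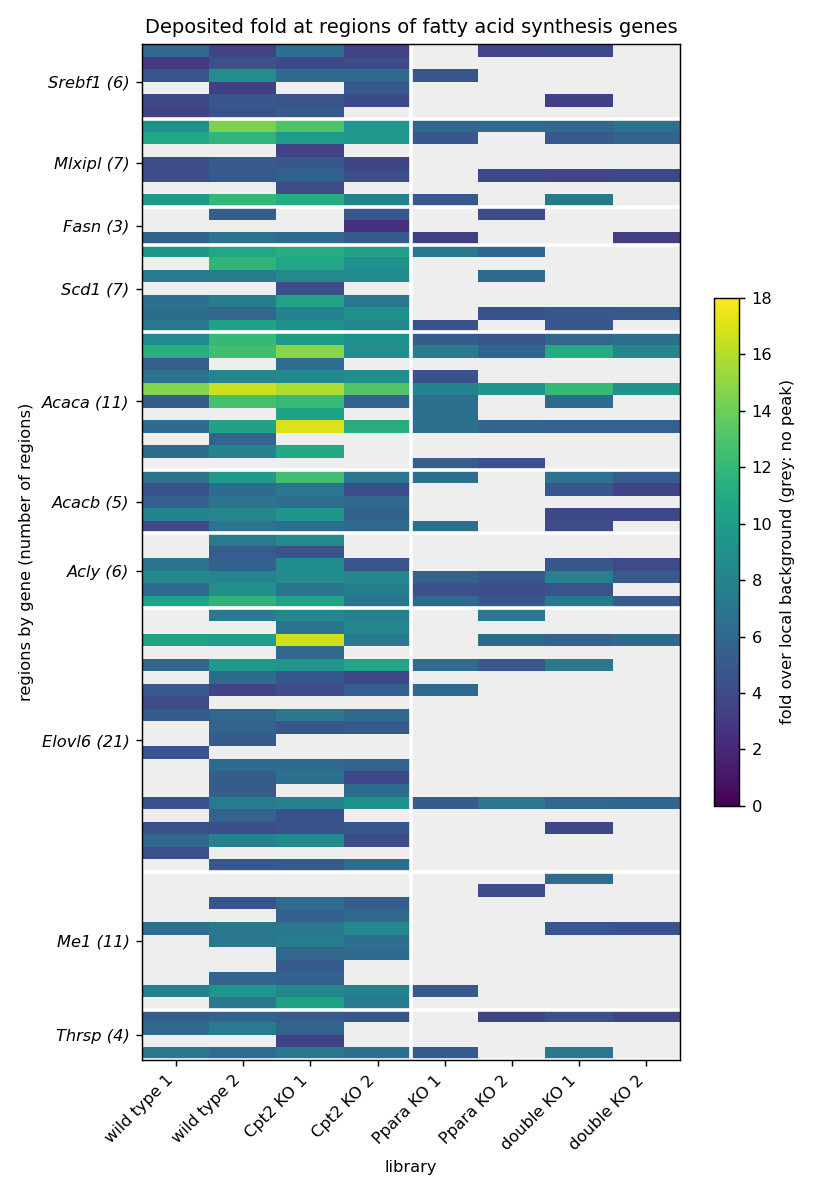
Deposited fold of the peak over its local background (colour) at each of the 81 regions (y axis, by gene and then by position) in each library (x axis), with grey where no peak was called. The 4 columns on the right, Ppara knockout and double knockout, hold the most grey, above all in the Elovl6 and Me1 blocks.

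At the gene starts, 13 regions overlapped an annotated start window or the window at the 5′ end of a gene's span (for Scd1, whose strand is not in the tables, either end). Over 4 libraries each, this gave 50 calls of 52 possible with Ppara and 24 of 52 without it. Over all 8763 regions at start windows of protein-coding genes the shares were 91.7% and 71.8%, against 96.2% and 46.2% for the listed genes. These 8763 were defined by annotated start windows alone, so the ends of gene spans count only for the listed genes. In equal-number lists the start regions of the listed genes were called at 63.5% ± 9.68 and 40.4% ± 7.36 (SD, n = 4 each), while all start regions were called at 67.5% in both sets of libraries. The median length of the 81 regions was 364 bp, close to the 381 bp of all regions, and 77.8% overlapped the gene they were assigned to, where 65.5% of all regions overlapped a protein-coding gene.

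The 2 starts of the gene for ChREBP differed. Values below are the authors' fold of a peak over its local background, in the order wild type 1 and 2, Cpt2 knockout 1 and 2, Ppara knockout 1 and 2, double knockout 1 and 2, and percentiles rank a peak by -log10 p among the peaks of its own list. The outer Mlxipl start (chromosome 5, 135089611 to 135090135), whose promoter holds the E-box shown above, had a deposited fold of 9.06 and 14.4 in wild type, 13.0 and 9.36 in Cpt2 knockout, 6.25 and 6.42 in Ppara knockout, and 5.94 and 6.76 in double knockout. All 8 libraries called it, and the highest Ppara-null fold lay under the lowest Ppara-intact one. The internal start (135106692 to 135107086) had folds of 4.13, 5.19, 4.90 and 3.68 in the 4 Ppara-intact libraries and no peak in any Ppara-null library. Its peaks were modest where present, with a -log10 p of 20.9 to 39.7 and a percentile of 29.8 to 53.3 within their own lists. Summits at the outer start lay between -117 and 38 bases from the annotated base.

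SREBP-1's gene has 3 annotated start windows, called outer, middle and internal here, while its span reaches further out, to 60224186. The region at the outer start (chromosome 11, 60222733 to 60223252) had folds of 4.08, 4.91, 4.64 and 4.05 in the Ppara-intact libraries and 3.39 in double knockout 1, with no peak in the other 3. Its summits lay at -438 to -303 bases from the start. At the middle start (60220338 to 60220785) only wild type 2 and Cpt2 knockout 2 had a peak, with folds of 3.43 and 4.97. At the internal start (60210256 to 60210806) the folds were 4.69, 8.91, 6.26 and 6.15 in the Ppara-intact libraries and 4.72 in Ppara knockout 1, and the other Ppara-null libraries had none. No start of Srebf1 was called in both libraries of either Ppara-null genotype. The outer and middle starts were called in 0 libraries in equal-number lists, and the internal one in 4 with Ppara and 1 without it.

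Fatty acid synthase had its main peak over the start (120823875 to 120824906 on chromosome 11). Its fold was 5.59 and 6.93 in wild type, 6.29 and 5.25 in Cpt2 knockout, 3.34 in Ppara knockout 1 and 3.24 in double knockout 2, and Ppara knockout 2 and double knockout 1 had no peak. By -log10 p these peaks ranked high where Ppara was present, at percentile 65.0 to 82.2 of their list, and low, at 8.25 and 7.82, in Ppara knockout 1 and double knockout 2. In 4 of the 6 libraries the summit lay 347 to 368 bases after the start, past the CCAAT boxes shown above, and in Cpt2 knockout 1 and double knockout 2 it lay at -64 and 57.

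Acly, which makes the acetyl-CoA, kept a start peak in all 8 libraries (chromosome 11, 100527247 to 100528452). Its fold was 10.5, 11.7, 10.5 and 6.93 in the Ppara-intact libraries, 6.17 and 4.97 in Ppara knockout, and 7.25 and 5.18 in double knockout. The groups overlap here, because Cpt2 knockout 2 lies under double knockout 1. In 7 libraries the summit fell 21 to 25 bases after the start, and in double knockout 1 at 208.

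At the first step of malonyl-CoA synthesis, the region over the 5′ end of Acaca (chromosome 11, 84129245 to 84129843) also overlaps Tada2a, a gene next to it, and cannot be given to either alone. Its fold was 8.54, 12.0, 9.80 and 9.18 in the Ppara-intact libraries and 5.30, 4.85, 6.08 and 6.61 in the Ppara-null ones, with no overlap. The region with the highest mean percentile of all 81 lay inside Acaca (84179234 to 84180431), with folds of 14.7, 16.6, 15.8 and 13.1, then 8.12, 9.47, 12.0 and 9.11. It stood at percentile 84.9 to 99.3 of each list. The table's start window of Acaca overlapped no consensus region.

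Acacb, the mitochondrial carboxylase, was called at its 5′ end (chromosome 5, 114145945 to 114146465) in every library but Ppara knockout 2. The folds there were 6.93, 9.65, 12.5 and 7.09 with Ppara, 6.60 in Ppara knockout 1, and 6.84 and 5.38 in double knockout. The table's start window of this gene overlapped no region either. The 6.84 in double knockout 1 lay just under the 6.93 in wild type 1, a gap smaller than that between the 2 wild type libraries.

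Me1 and Elovl6, which supply NADPH and lengthen palmitate, were the genes least often called without Ppara in the lists as deposited. The Me1 start (chromosome 9, 86695262 to 86696289) had folds of 7.80, 9.47, 8.29 and 7.86 in Ppara-intact libraries, 5.10 in Ppara knockout 1, and no peak in the other 3. In equal-number lists every library with Ppara and none without it called it. The Elovl6 start (chromosome 3, 129531926 to 129532519) had folds of 5.16, 3.70, 4.25 and 5.37, then 6.15 in Ppara knockout 1 and none in the other 3. That 6.15 is above every Ppara-intact value, while the other Ppara knockout library had no peak. The Elovl6 start was called by 1 library with Ppara and 1 without it in equal-number lists. Its summits kept to a narrow stretch, at -274 to -268 bases from the start. The Elovl6 region with the highest mean percentile over 8 libraries, a missing peak counted as 0, lay 81268 bp outside the gene (129450693 to 129451117). It had folds of 10.4, 10.0, 16.7 and 7.26 with Ppara, none in Ppara knockout 1, 6.23 in Ppara knockout 2, and 5.69 and 6.23 in double knockout.

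For Scd1, the desaturase, the region at one end of the gene's span (chromosome 19, 44407253 to 44407701) had folds of 6.58, 7.60, 10.5 and 7.07 with Ppara and no peak without it. By the mean percentile over 8 libraries, a missing peak counted as 0, the highest Scd1 region lay 10312 bp outside the gene (44418022 to 44418451). It had folds of 7.20, 10.4, 9.21 and 8.42 with Ppara, 4.57 in Ppara knockout 1 and 4.85 in double knockout 1. Thrsp was called at its start (chromosome 7, 97417332 to 97417892) in 7 libraries, with folds of 5.36, 5.70, 5.20 and 4.83, none in Ppara knockout 1, 3.70 in Ppara knockout 2, and 4.46 and 3.78 in double knockout. The direction turned at this start in equal-number lists, where 1 library with Ppara and 3 without it called it. Another Thrsp region, 6115 bp outside the gene (97423666 to 97424084), had folds of 7.29, 6.47, 7.28 and 6.67 with Ppara, 5.08 in Ppara knockout 1 and 7.12 in double knockout 1.

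**Figure D3:**
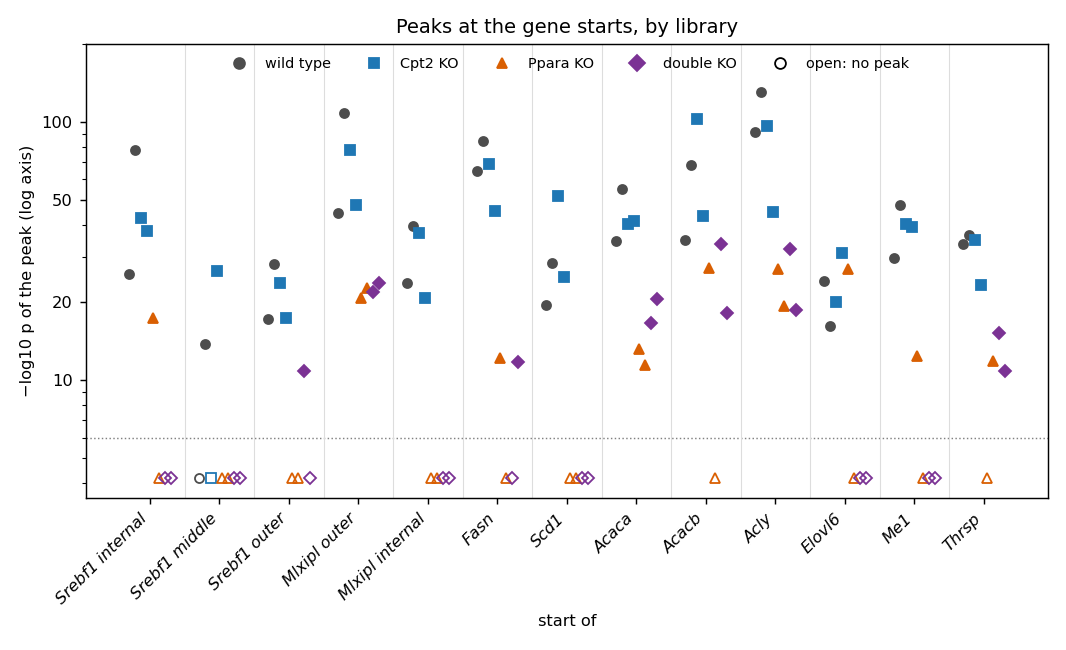
The -log10 p of the peak at each of the 13 start regions (x axis) in each library (y axis, log scale), with symbols by genotype and open symbols below the dotted line where no peak was called. The outer Mlxipl start, Acaca and Acly are the 3 with closed symbols for all 8 libraries.

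The question of which regions separate the livers by Ppara status was answered by counting regions that every library with Ppara and no library without it had called. Of the 81 regions, 6 (7.41%) met this rule, against 6.82% of all regions, so the share is near the background. They were the internal Mlxipl start, the Scd1 end region, 1 region inside Srebf1 (60205090 to 60205376), 1 inside Acacb (114157305 to 114157613), and 2 inside Elovl6 (129536192 to 129536549 and 129592981 to 129593369). The reverse held for 0, against 0.0686% of all regions. Leaving out wild type 1 raised the count to 15 of 81, with 11.8% of all regions, and leaving out Ppara knockout 1 raised it to 10, with 8.36%.

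The 4 regions inside genes had peaks of middling strength. Inside Acacb the folds were 5.48, 6.88, 6.49 and 6.10, with a percentile of 41.6 to 57.9. At the first Elovl6 region they were 5.19, 6.04, 7.14 and 6.19, and at the second 6.17, 7.81, 8.71 and 4.19. Inside Srebf1 they were 3.08, 4.46, 4.07 and 4.17, with a percentile of 15.6 to 37.9, so these are among the weaker peaks of their lists. In equal-number lists 2 of the 81 regions were separated by Ppara status, the region inside Acacb and the Me1 start, against 0.811% of all regions, and 0 in reverse, against 0.512%. With peaks of a -log10 q of at least 20 alone, 16 were separated, against 9.00% of all regions, and 0 in reverse, against 0.0222%.

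Few of the regions were called everywhere. In all, 8 of the 81 regions (9.88%) were called in all 8 libraries, against 22.7% of all regions: 4 at Acaca, 2 at Acly, and 1 each at Elovl6 and Mlxipl. A further 14 (17.3%) were called in 1 library only, against 23.0%, and 40 (49.4%) in no Ppara-null library, against 42.3%. Within the 8 regions called everywhere, the deposited folds of all Ppara-intact libraries exceeded those of all Ppara-null ones at 4, against 60.0% of all regions called everywhere, and the reverse held at 0, against 0.222%. The 4 were the outer Mlxipl start, the Acaca 5′ end, the strongest Acaca region, and a region inside Acly (100515002 to 100515438), whose folds were 8.13 to 8.70 with Ppara and 4.93 to 7.93 without it.

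**Figure D4:**
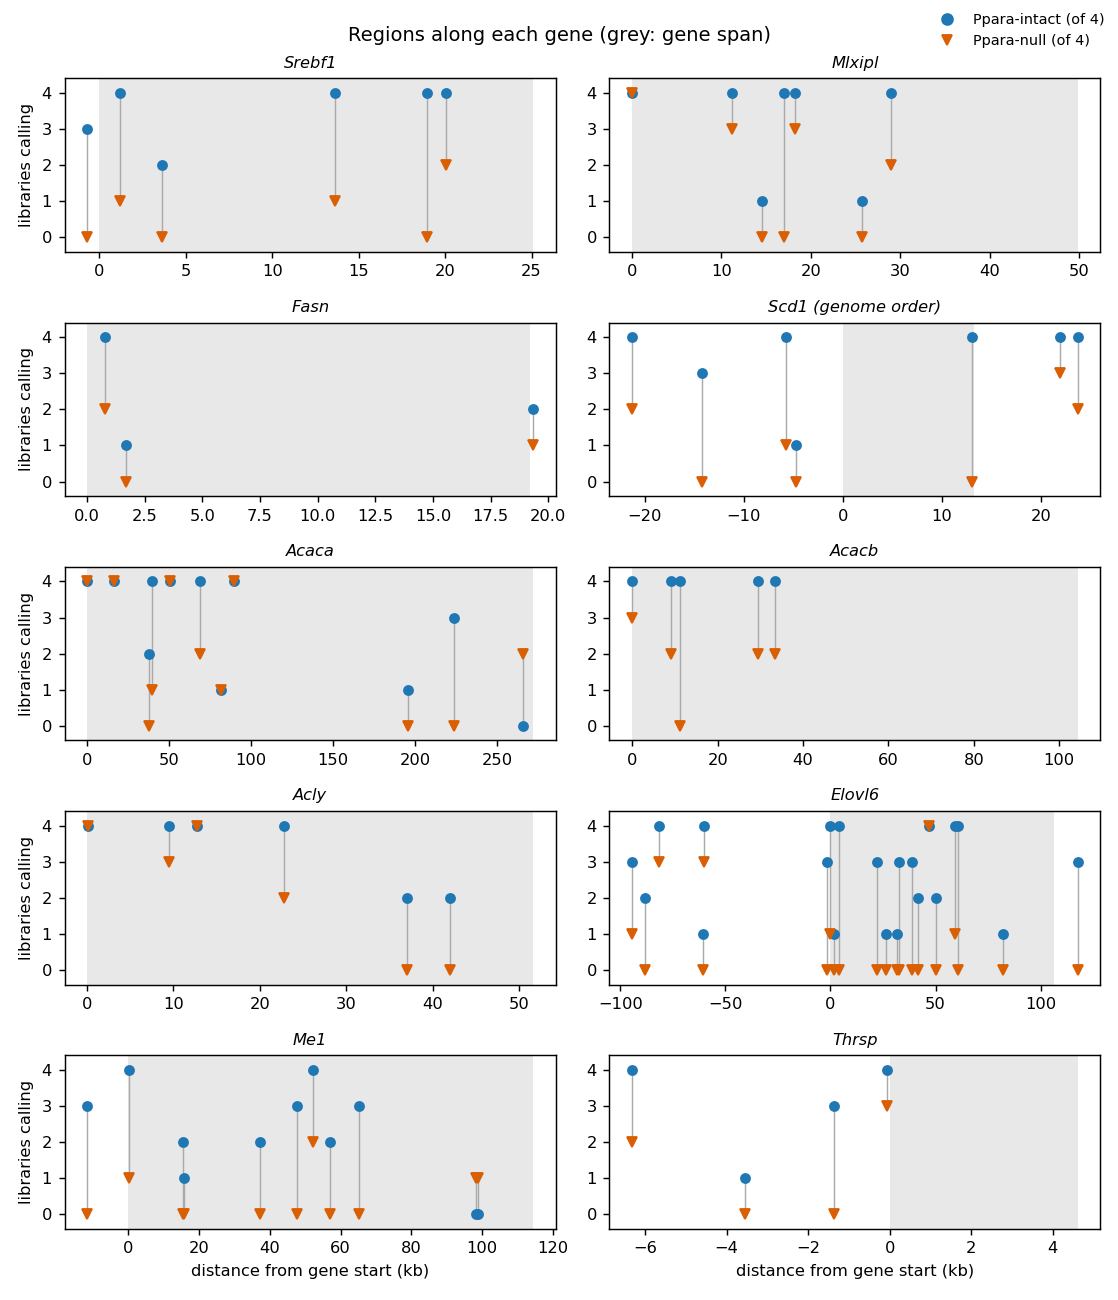
Number of libraries calling each region (y axis, of 4 Ppara-intact as blue circles and of 4 Ppara-null as orange triangles) by distance of its middle from the gene's 5′ end (x axis, kb), with the gene span in grey and Scd1 drawn in genome order. Regions called in all 4 Ppara-null libraries occur at Mlxipl, Acaca, Acly and Elovl6.

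Loss of Ppara with Cpt2 present was read from Ppara knockout against wild type. At 15 of the 81 regions (18.5%) both wild type and no Ppara knockout libraries had a peak, against 13.6% of all regions, and 1 was called the other way, against 0.460%. The 15 were spread over 9 genes, all but Fasn, with 3 each at Srebf1, Acacb and Elovl6. Ranked by mean percentile in the 2 libraries of the genotype that called them, as in the other pairs, the highest was inside Acacb (114175557 to 114176117), with folds of 8.15 and 8.22 in wild type and none in Ppara knockout. It was also called in both Cpt2 knockouts, at 9.37 and 5.56, and in both double knockouts, at 3.92 and 4.005. Next came a region 1195 bp outside Thrsp (97418746 to 97419105), with folds of 6.16 and 7.33 in wild type, 5.73 in Cpt2 knockout 1 and no peak in the other 5 libraries, and the Acacb region separated by Ppara status. The 1 region called in both Ppara knockouts and no other library lay inside Acaca (84395105 to 84395340), with folds of 5.44 and 4.52, where 0.0645% of all regions had this pattern. In equal-number lists 7 were called only in wild type and 2 only in Ppara knockout, against 3.44% and 2.38% of all regions. Leaving out wild type 1 raised the total from 16 to 33, with 30.5% of all regions, and leaving out Ppara knockout 1 raised it to 29, with 23.1%.

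Double knockout against wild type, with both genes lost, gave 15 regions (18.5%) called only in wild type, against 12.9% of all regions, and 0 only in double knockout, against 1.20%. Among them 5 lay at starts, those of Srebf1 (internal), Mlxipl (internal), Scd1, Elovl6 and Me1. The highest ranked were the Thrsp region 1195 bp outside the gene, the internal Srebf1 start, and a region 21122 bp outside Scd1 (44372999 to 44373327). The last had folds of 9.41, 10.8, 11.2 and 10.4 with Ppara, 7.26 and 5.89 in Ppara knockout, and no peak in double knockout. It was the 1 region of the 81 missing only in double knockout, a pattern of 0.982% of all regions. In equal-number lists 8 were called only in wild type and 1 only in double knockout, against 3.35% and 3.08% of all regions. Without wild type 1 the total was 34, with 31.1% of all regions, and without double knockout 1 it was 25, with 24.2%.

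Comparing double knockout with Cpt2 knockout shows Ppara loss on the Cpt2-null background, where Cpt2 knockout 1 had the longest list of the 8. Of the 81, 25 (30.9%) were called in both Cpt2 knockouts and no double knockout, against 20.4% of all regions, and 0 in reverse, against 0.597%. Elovl6 held 10 of the 25, Me1 6 and Scd1 4, while Fasn, Acly and Thrsp held none. The highest ranked was 5260 bp outside Scd1 (44388338 to 44389189). It had folds of 7.49 and 7.66 in wild type, 8.47 and 8.65 in Cpt2 knockout and 6.18 in Ppara knockout 2. In equal-number lists 8 were separated in favour of Cpt2 knockout and 1 in favour of double knockout, against 2.99% and 2.61% of all regions. Leaving out Cpt2 knockout 2 raised the deposited count to 40, with 34.5% of all regions.

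Cpt2 loss with Ppara present separated few regions. Those called in both Cpt2 knockouts and no wild type library numbered 3 (3.70%), against 3.63% of all regions, and 0 showed the reverse, against 0.512%. They lay 87823 bp outside Elovl6 (129444223 to 129444562), with folds of 6.98 and 8.37, and inside Me1 (86638815 to 86639108, and 86658424 to 86658722), with folds of 5.49 and 6.19, and 6.08 and 6.28. None of the 3 was called in a Ppara-null library, and 2.69% of all regions were likewise called in both Cpt2 knockouts and no other library. In equal-number lists none of these 3 was separated. There 1 other region was separated in favour of Cpt2 knockout and 1 in favour of wild type, against 0.918% and 0.815% of all regions. Over both backgrounds, 0 regions followed Cpt2 status in either direction, against 0.0968% of all regions called only with Cpt2 lost and 0.00605% called only with it present. Leaving out any of the 4 libraries of this pair raised the counts. Without wild type 1 3 were separated in favour of Cpt2 knockout and 2 in favour of wild type, with 10.4% of all regions separated in either direction. These were 13 and 3 without wild type 2, with 14.6%. They were 4 and 3 without Cpt2 knockout 1, with 12.6%, and 10 and 0 without Cpt2 knockout 2, with 12.9%.

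Cpt2 loss where Ppara was already lost, double knockout against Ppara knockout, gave 4 regions (4.94%) called only in double knockout, against 2.33% of all regions, and 2 (2.47%) only in Ppara knockout, against 1.45%. All 4 were also called in every Ppara-intact library, so they were missing only in Ppara knockout, a pattern of 1.30% of all regions. They lay inside Acacb (114155152 to 114155567, and the region at 114175557), Acly (100504998 to 100505440) and Me1 (86643488 to 86643913). In double knockout their peaks were weak, with folds of 3.59 to 4.97 and a -log10 p of 9.73 to 18.1, where the lowest -log10 p of the 8 lists ranged from 7.11 to 7.82. In equal-number lists 1 was called only in double knockout and 2 only in Ppara knockout, against 2.03% and 1.84% of all regions. When peaks had to cover at least 50% of a region it was again 1 and 2, against 2.58% and 1.68%. The direction thus turned in both, on few regions. The total of 3.70% of the 81 was near the 3.86% and 4.27% of all regions. Without Ppara knockout 1 there were 6 in each direction, with 11.1% of all regions separated. Without Ppara knockout 2 there were 8 only in double knockout and 7 only in Ppara knockout, with 9.23%.

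Other genes of lipid synthesis were taken from lists, to be read against the 6.82% of all regions separated in favour of Ppara-intact and 0.0686% in reverse. The 12 regulators and partners of SREBP and ChREBP, such as Scap, Insig1 and Nr1h3, had 51 regions, called at 76.5% with Ppara and 45.6% without it. Of these, 1 (1.96%), at Insig1, was separated in favour of Ppara-intact and 0 in reverse. The 13 genes of elongation, desaturation and triglyceride synthesis, such as Fads1 and Dgat2, had 92 regions, of which 11 (12.0%) were separated in favour of Ppara-intact and 0 in reverse. Beside these, cholesterol synthesis and uptake had 7 (9.33%) and 0 of 75 regions separated in these directions, and fatty acid oxidation 9 (10.8%) and 1 of 83.

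In equal-number lists the fatty acid synthesis genes had the largest difference of the 5 lists of lipid genes given here, -13.0 points. It was -9.80 for regulators, -9.78 for elongation and triglyceride synthesis, -5.72 for oxidation and 0.667 for cholesterol synthesis. Libraries with and without Ppara did not overlap for fatty acid synthesis and for elongation and triglyceride synthesis, and overlapped for the other 3 lists. They did not overlap over all regions either, where the difference was -0.686 points. The differences between lists were not tested.

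**Figure D5:**
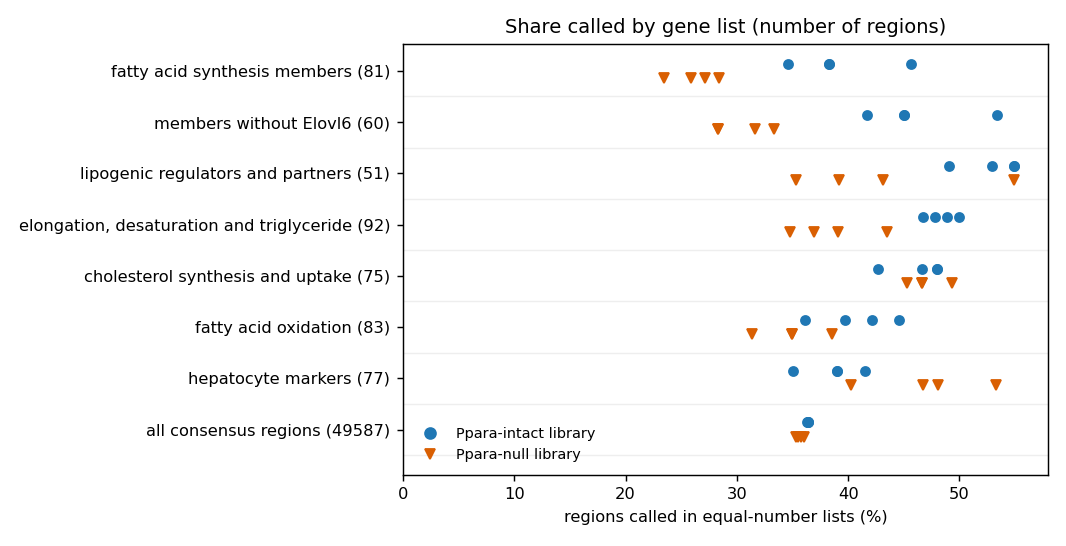
Share of each list's regions called in equal-number lists (x axis, percent), with 1 point for each of the 4 Ppara-intact (circles) and 4 Ppara-null libraries (triangles), and the number of regions in brackets. Points with equal shares lie on each other. For fatty acid synthesis the circles span 34.6% to 45.7% and the triangles 23.5% to 28.4%.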

How the data were processed

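Peak lists of 8 ATAC-seq libraries and tracks of consensus regions were used, and the first track gave the regions. Per the submitters' processing notes, BWA and MACS2 2.1.0 were used, with mm10 as the build. Column 5 of each deposited list is a score, column 7 a fold (ratio) of the peak over local background, and columns 8 and 9 are −log10 p and −log10 q values, all as the authors' peak caller wrote them, per library. Steps before peak calling and read totals are not given in the sources used here, so depth is unknown, and lists of 18132 to 39296 peaks stand in for it. Because the files hold peaks and not counts, no count model was fitted.

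A region was called in a library where any peak shared 1 bp or more with it, and the peak with the highest −log10 p gave its values and its percentile in that list. Genes came from RefSeq on GRCm38.p6, with 21900 protein-coding genes. No test was made, and differences are set beside the same share over all regions. The genes and lists were chosen with earlier results of these data known. One further gene list is not reported here. Regions given in full were those at gene starts, those separated by Ppara or Cpt2 status, the 3 separated in each direction of each pair of genotypes with the highest mean percentile in the 2 calling libraries, and the one of each gene with the highest mean percentile over 8 libraries (0 where no peak). Alternatives were equal-number lists, a −log10 q of at least 20, peaks covering at least 50% of a region, a 10 kb limit, regions with a single nearest gene, each library left out in turn and, added after seeing the data, no Elovl6 regions. The code was tested on simulated data. Python 3.11.15, NumPy 2.4.6, pandas 2.3.3 and matplotlib 3.10.9 were used.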

Additional observations from a re-analysis of the deposited data

How the results depend on the processing

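Of 78 values under alternatives, 55 stayed within 1.5 times (counts) or the spread between libraries (shares) without turning direction. A further 21 moved beyond this and 2 turned direction. The 55 include the 13 by Cpt2 status, which were 0 in both directions. They also include ties, with no direction left. Cpt2 knockout against wild type gave 1 region each way in equal-number lists. Double knockout against Ppara knockout gave 4 each way without double knockout 1. With equal-number lists, which hold fewer peaks by construction, the difference in share was -13.0 points. The separated regions numbered 2 by Ppara status, against 1.32% of all regions. They numbered 9 for each of wild type against Ppara knockout, wild type against double knockout, and Cpt2 knockout against double knockout. By direction these were 7 and 2, 8 and 1, and 8 and 1, against 5.82%, 6.43% and 5.61% of all regions in either direction. Between wild type and Cpt2 knockout they numbered 2, against 1.73%. Between Ppara knockout and double knockout they numbered 3, against 3.86%, and the direction turned. With a -log10 q of at least 20 the separated regions numbered 16 by Ppara status, against 9.02% of all regions. They numbered 0 between wild type and Cpt2 knockout and 0 between Ppara knockout and double knockout, against 2.37% and 2.54%. With peaks covering at least 50% of a region, double knockout against Ppara knockout gave 3, against 4.27% of all regions. The direction turned there, and the cause was not tested. Leaving out 1 library, which loosens the rule by construction, raised the share of all regions too. It gave 6 to 15 by Ppara status, with 7.31% to 11.9% of all regions. Between wild type and Cpt2 knockout it gave 5 to 16, with 10.4% to 14.6%. Between wild type and Ppara knockout it gave 20 to 33, with 19.0% to 30.5%, and between wild type and double knockout 17 to 34, with 19.0% to 31.1%. Between Cpt2 knockout and double knockout it gave 27 to 40, with 25.7% to 35.5%. Between Ppara knockout and double knockout it gave 8 to 15, with 9.23% to 11.1%. By Cpt2 status the count was 0 under every alternative run, against 0.0524% to 0.305% of all regions. Without the Elovl6 regions, chosen after seeing the data, the difference in share was -41.7 points. No paired analysis was possible because the calls come from no test and the labels do not say that equal replicate numbers mark a shared animal or batch. Unknown depth limits what an absent call shows: a peak may be present under the caller's threshold.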
